A study of Danio rerio with 4 samples.

Results

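Chaperones are proteins that keep other proteins folded, and their genes are among the first to be switched on when a tissue is heated, poisoned or wounded. The genes described here are the heat shock, chaperone and unfolded protein genes of the zebrafish retina, chosen by symbol: the HSP families, J-domain and BAG co-chaperones, the folding enzymes and degradation factors of the endoplasmic reticulum (ER), and the stress regulators *atf4* to *atf6*, *xbp1*, *ddit*, *trib3*, *chac1*, *gadd45*, *hmox*, *sqstm1* and *sesn*. In all, 26 of the 2543 genes in the 6 deposited lists carried such a symbol. The libraries were 1 each of whole retina from uninjured fish, from fish at 12 hr post-injury (hpi), from fish at 4 days post-injury (dpi), and from fish at 4 dpi that had been kept in 10 μM cyclopamine, an inhibitor of Smo and thereby of Shh signaling, for 4 days. All fish were wild type and 10 months old, the injury was made with a needle, and the number of fish behind each library is not given in the sources used here. For the 4 dpi library the labels give the agent as none and no vehicle is named, so the drug and the way it was given cannot be told apart.

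In the cytosol, small heat shock proteins hold unfolding proteins in a soluble state, and HSP70 refolds them in cycles that J-domain proteins start and that BAG and HSP110 proteins help to end. In the ER, an HSP70 named BiP, an HSP90 named Grp94, calreticulins and protein disulfide isomerases fold the secreted and membrane proteins, of which photoreceptors make large amounts. When unfolded proteins accumulate there, the unfolded protein response raises this machinery, and 1 branch of it, shared with amino acid shortage, works through ATF4 and its targets.

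Levels are in FPKM, that is, fragments for each kilobase of a transcript, scaled by the mapped fragments of the library, and are deposited only for the genes that the authors listed as higher or lower than in uninjured retina. Genes outside the lists have no values here, so a gene that was not listed is not shown to be unchanged. Genes of the set were found by their deposited lower-case symbol. A gene deposited in capitals or under another name would be missed, and below it would count as in none of the lists. The authors' significance column reads no for every row of the set with values, so being listed is not a significance call. Because each condition had 1 library, no value has a replicate error, no test across samples was possible, and every ratio below describes 2 libraries. In whole retina, a difference in the number of cells of a type and a difference in RNA per cell cannot be told apart. The uninjured library is shared by all 3 comparisons.

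At 12 hpi, 15 of the chaperone and stress genes were listed as higher and none as lower. The 4 dpi lists held 10 of them, 9 higher and 1 lower, and the cyclopamine lists held 14, of which 13 were higher. Among all genes listed in either direction, the share listed as higher was 63.8% at 12 hpi, 60.9% at 4 dpi and 47.1% with cyclopamine. A second denominator was the RefSeq annotation, in which 148 of 22184 named protein-coding genes match the same symbols. Of these 148 genes, 10.1% were listed as higher at 12 hpi, against 1.31% of all named protein-coding genes. At 4 dpi the shares were 6.08% and 3.49%, and with cyclopamine 8.78% and 2.6%. The shares listed as lower were 0% against 0.798% at 12 hpi, 0.676% against 1.88% at 4 dpi, and 0.676% against 2.24% with cyclopamine. In any list and either direction stood 8.92% of all named protein-coding genes, the share against which the counts of each family below can be read. The annotated genes include many that the retina may not express, and these shares carry no test. Of the 386 genes listed as higher at 12 hpi, 291 were matched to this annotation, but all 15 of the set were. Protein-coding genes deposited in capitals or under other names could be missed, so the shares of all named genes may be too low.

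**Figure D1:**
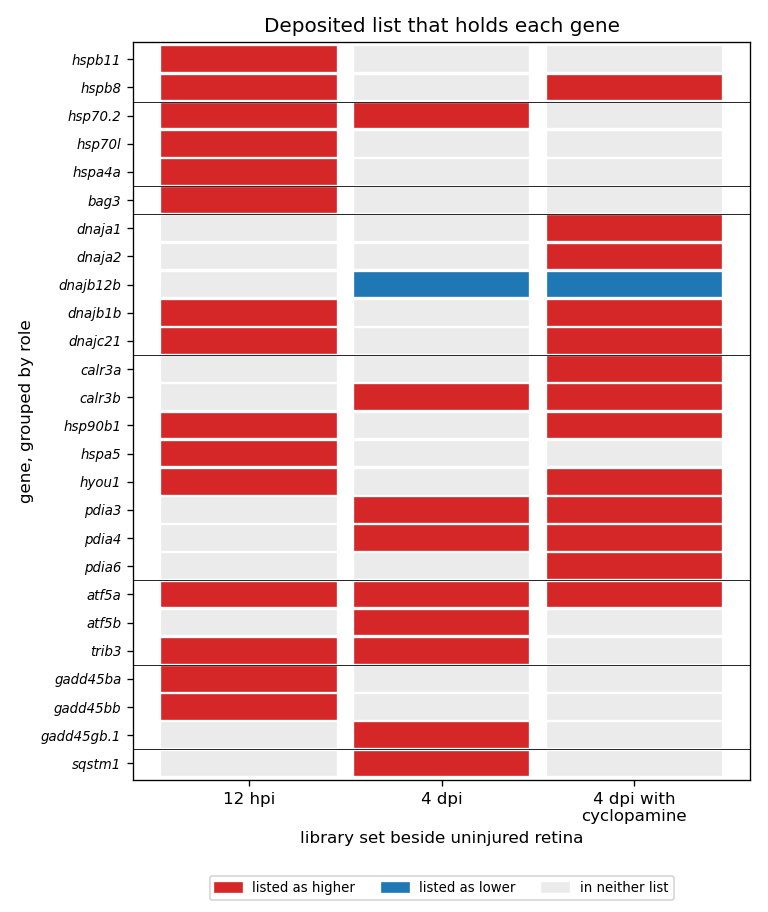
Grid of the 26 genes (rows, grouped by role) and the 3 libraries set beside uninjured retina (columns); red marks a gene listed as higher, blue a gene listed as lower, and grey a gene in neither list. The only blue cells are those of *dnajb12b*, at 4 dpi without and with cyclopamine, and *atf5a* is red in all 3 columns.

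The small heat shock proteins, which bind unfolding proteins without using ATP, gave the highest ratio of the set. *hspb11* (ENSDARG00000002204, chromosome 21, 20347200 to 20348242, plus strand; the submitters' notes name the build GRCz10) had 1.07 FPKM in the uninjured library against 87.3 FPKM at 12 hpi. This was 74.7 times the uninjured level and a log2 ratio of 6.22, both with 0.1 FPKM added to each value, and with 1 FPKM added the log2 ratio was 5.41. By log2 ratio it ranked 24 among the 386 genes listed as higher. The symbol needs care, because the later name table gives this identifier the symbol *hspb9l*, of which *hspb11* is an older name, while RefSeq now uses *hspb11* for another gene. *hspb8*, whose human counterpart works together with BAG3 in sending damaged proteins to autophagy, has 3 annotated transcripts. Its listed transcript had 0.487 FPKM in the uninjured library against 2.47 FPKM at 12 hpi (log2 ratio 2.13, or 1.22 with 1 FPKM added). The level of the whole gene at 12 hpi is not given. *hspb8* was also listed as higher with cyclopamine, and *hspb11* was in no list at 4 dpi without or with cyclopamine. Of 11 RefSeq genes of this family, the other 9 were in none of the lists used here.

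Of 18 RefSeq genes grouped by symbol as HSP70 and HSP110 outside the ER, 3 were in a list. *hspa8*, *hspa9*, *hspa4b* and *hsph1* were among those in none. *hsp70l* (chromosome 8, 4741890 to 4744644, plus strand), a heat-inducible HSP70 of zebrafish, had 4.58 FPKM in the uninjured library against 61.5 FPKM at 12 hpi, a log2 ratio of 3.72. *hsp70.2* (chromosome 3, 25950471 to 26026195, minus strand) had 0.513 FPKM in uninjured retina, 17.4 FPKM at 12 hpi and 6.28 FPKM at 4 dpi, with log2 ratios of 4.83 and 3.38 (3.60 and 2.27 with 1 FPKM added). In the RefSeq annotation *hsp70.2* lies between *hsp70.1* and *hsp70.3*, which were not found by symbol in any of the lists used here. These copies are closely similar in sequence, and the interval given for *hsp70.2* is far longer than that of *hsp70l*, so fragments of 1 gene may have been assigned to another and the values of *hsp70.2* and *hsp70l* are uncertain in that respect. *hspa4a*, of the HSP110 group that exchanges the nucleotide of HSP70, had 8.64 and 28.1 FPKM, and its log2 ratio of 1.69 was the lowest of the 15 genes at 12 hpi. None of these 3 genes was in a cyclopamine list.

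Of the co-chaperones of HSP70, 1 of 7 BAG genes and 2 of 53 J-domain genes were listed as higher at 12 hpi. Over all named protein-coding genes, the share listed as higher at 12 hpi was 1.31%. *bag3*, which links HSP70 to small heat shock proteins and to autophagy, had 5.67 FPKM in the uninjured library against 37.7 FPKM at 12 hpi, a log2 ratio of 2.71. No other gene of the BAG group was in a list. *dnajb1b*, a J-domain protein of the class that works with HSP70 and HSP110 on aggregates in mammals, had 1.80 and 10.0 FPKM (log2 ratio 2.42). *dnajc21*, whose human counterpart takes part in making the large ribosomal subunit rather than in folding, had 1.75 and 8.90 FPKM (log2 ratio 2.28). The cyclopamine list of higher genes held both J-domain genes, and in it *dnaja1* and *dnaja2*, HSP70 partners of class A, appeared too. The cyclopamine lists hold names without values, so no levels can be given for *dnaja1* and *dnaja2*.

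*dnajb12b* was the single gene of the set listed as lower. Its human counterpart is anchored in the ER membrane and helps to discard misfolded membrane proteins. It had 61.0 FPKM in the uninjured library against 19.4 FPKM at 4 dpi, a log2 ratio of -1.64, which ranked 465 by size among the 573 genes listed as lower. Among the 22 genes of the set with deposited levels, *dnajb12b* had the highest in uninjured retina and was also listed as lower with cyclopamine. Of 53 RefSeq genes of the J-domain group, 5 were in any list (9.43%), close to the 8.92% of all named genes.

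**Figure D2:**
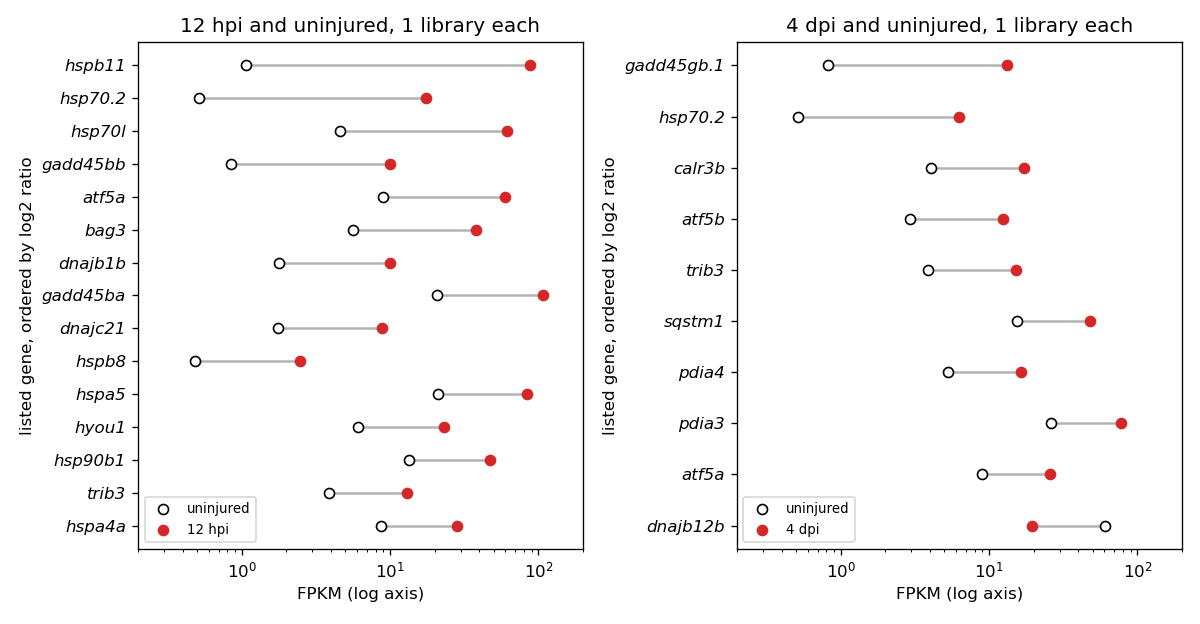
FPKM (log axis) of each listed gene in uninjured retina (open circles) and in the injured retina (filled circles) at 12 hpi (left, 15 genes) and 4 dpi (right, 10 genes); each point is 1 library. *hspb11* spans the longest line, from 1.07 to 87.3 FPKM, and *dnajb12b* is the only gene whose filled circle lies to the left.

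Of 14 RefSeq genes grouped as ER folding, 8 were in a list (57.1%, against 8.92% of all named genes), always as higher. The 12 hpi list held 3 of them, the 4 dpi list 3 and the cyclopamine list 7. The group was formed of *hspa5*, *hsp90b1*, *hyou1* and the *pdia*, *calr* and *canx* genes. The plan had placed the first 3 with the HSP70 and HSP90 genes. All J-domain genes were counted apart, also any that work in the ER, so the share depends on the grouping. At 12 hpi the listed ER genes were lumenal chaperones. *hspa5*, which encodes BiP, had 20.9 FPKM in the uninjured library against 83.8 FPKM at 12 hpi. *hsp90b1*, which encodes Grp94, had 13.4 and 47.3 FPKM. *hyou1*, the nucleotide exchange factor of BiP, had 6.11 and 23.1 FPKM. Their ratios were 3.99 times the uninjured level for *hspa5*, 3.74 for *hyou1* and 3.51 for *hsp90b1*. By log2 ratio they ranked 332, 338 and 351 of the 386 genes listed as higher, toward the lower end of the list. Genes with smaller ratios may not have been listed, so the closeness of the 3 ratios is not a result about these genes. The cyclopamine list of higher genes held *hyou1* and *hsp90b1*, and *hspa5* was not in the lists for 4 dpi without or with cyclopamine.

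At 4 dpi the listed ER genes were disulfide isomerases and a calreticulin. Their levels at the earlier time are not given, nor are the 4 dpi levels of the lumenal chaperone genes listed earlier. The earlier list is of transcripts and that of 4 dpi is of genes. A change over time from lumenal chaperones to isomerases is therefore not shown. *pdia3*, which works on glycoproteins held by calreticulin, had 26.1 FPKM in the uninjured library against 78.2 FPKM at 4 dpi. *pdia4* had 5.32 and 16.5 FPKM, and *calr3b*, a calreticulin gene, had 4.08 and 17.2 FPKM. Their log2 ratios were 1.58, 1.62 and 2.05, so *calr3b* had the highest ratio of the 3 and *pdia3* the highest level. All 3 were listed as higher with cyclopamine too, together with *pdia6* and *calr3a*, which were in no other list. The calnexin gene *canx*, the calreticulin gene *calr*, and the degradation genes *herpud1*, *sel1l* and *edem1* were in none of the lists used here. Other groups of the set had no listed gene at all. These were the 6 RefSeq genes of ER associated degradation, the 5 grouped as heat shock factors, the 3 of cytosolic HSP90 and the 2 mitochondrial chaperonin genes.

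Of 10 RefSeq genes of stress response regulators, 3 were in any list, and *atf5a* and *trib3* were listed both at 12 hpi and at 4 dpi. *atf5a*, a bZIP factor whose mammalian counterpart is translated when the ATF4 branch is active, had 8.99 FPKM in uninjured retina, 60.0 FPKM at 12 hpi and 25.9 FPKM at 4 dpi. Its log2 ratios were 2.72 and 1.52, and it was the 1 gene of the set listed as higher in all 3 comparisons. *trib3*, a pseudokinase induced by ATF4 in mammals, had 3.88, 13.1 and 15.2 FPKM in the same libraries, with log2 ratios of 1.73 and 1.94. *atf5b*, the second *atf5* copy, had 2.95 FPKM in the uninjured library against 12.4 FPKM at 4 dpi (log2 ratio 2.03). *trib3* and *atf5b* were in neither cyclopamine list. *atf4a*, *atf4b*, *atf6*, *xbp1*, *ddit3* and *chac1*, which are among the classical factors and targets of the unfolded protein response, were in none of the lists used here, nor were the heat shock factor genes *hsf1*, *hsf2* and *hsf4*. The symbols of the set do not cover every gene of this response. Outside the set, *atf3* and *ern2*, looked up after their values were seen, were listed as higher. *atf3* had 0.952 FPKM in uninjured retina, 81.8 FPKM at 12 hpi and 26.6 FPKM at 4 dpi. *ern2* had 1.17 FPKM in the uninjured library against 5.83 FPKM at 12 hpi.

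*atf5a*, *trib3* and *hsp70.2* were the genes of the set with a value in 3 libraries. The uninjured value of each was identical in the 12 hpi and 4 dpi tables, although the former is per transcript and the latter per gene. *atf5a* at 12 hpi had 2.31 times its 4 dpi level and *hsp70.2* had 2.77 times, whereas *trib3* had 0.862 times. For *hsp70.2*, with 3 annotated transcripts, the later values may cover different transcripts, while *atf5a* and *trib3* have 1 annotated transcript each. Without replicates, the order of 12 hpi and 4 dpi was not tested for any of them.

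**Figure D3:**
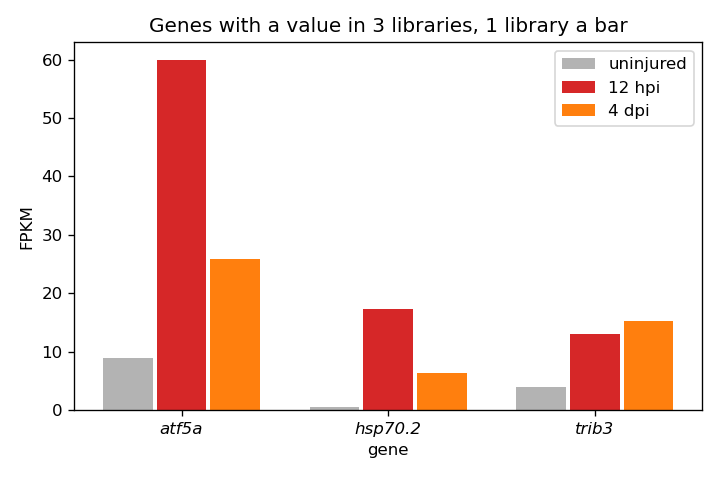
FPKM of *atf5a*, *hsp70.2* and *trib3* in uninjured retina (grey), at 12 hpi (red) and at 4 dpi (orange); each bar is 1 library, so there are no error bars. *atf5a* and *hsp70.2* had their highest value at 12 hpi (60.0 and 17.4 FPKM), and *trib3* had 13.1 FPKM at 12 hpi and 15.2 FPKM at 4 dpi.

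The GADD45 genes encode small proteins that bind cell cycle and stress kinase regulators. Of 6 RefSeq genes of this group, 3 were in any list (50%, against 8.92% of all named genes), each at 1 time. Their levels at the other time are not given, so a difference between copies in time is not shown. The listed transcript of *gadd45ba*, which has 4 annotated transcripts, had 20.8 FPKM in the uninjured library against 108.1 FPKM at 12 hpi (log2 ratio 2.37). This was the highest deposited level of the set in an injured library, where the 4 dpi levels are of genes. *gadd45bb*, a related copy, had 0.850 and 10.0 FPKM (log2 ratio 3.41, or 2.57 with 1 FPKM added). *gadd45gb.1* had 0.819 FPKM in the uninjured library against 13.3 FPKM at 4 dpi, and its log2 ratio of 3.86 (2.97 with 1 FPKM added) was the highest of the set at that time. No GADD45 gene was in a cyclopamine list. *sqstm1*, an autophagy receptor for ubiquitin-tagged proteins, had 15.4 FPKM in the uninjured library against 47.8 FPKM at 4 dpi (log2 ratio 1.63) and was also in neither cyclopamine list. *hmox1a*, *hmox1b* and the sestrin genes *sesn1* to *sesn4* were in none of the lists used here.

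Compared with all genes listed as higher, most genes of the set had lower ratios and higher uninjured values. At 12 hpi the median log2 ratio was 2.37 over the 15 genes and 3.25 over the 386 genes listed as higher. The median uninjured level was 4.58 FPKM for the set and 1.04 FPKM for all genes listed as higher, and 3 of 15 genes of the set (20.0%) were under 1 FPKM in uninjured retina, against 49.7% of all. No gene of the set was listed at 0 in uninjured retina, where 116 of the 386 were. Transcripts were listed at 12 hpi, so a value of 0 there need not mean that the gene was silent. For *rps28* the listed transcript had 0.00153 FPKM in the uninjured library, against 68.1 FPKM for the gene. How far this accounts for the lower uninjured values of all listed genes was not tested. At 4 dpi the median log2 ratio was 1.94 over the 9 genes and 2.69 over the 893 listed as higher, and the median uninjured levels were 4.08 and 2.19 FPKM. Of the 9 genes, 7 lay below the lower quartile of the listed log2 ratios (2.13), and at 12 hpi 7 of the 15 lay below it (2.28). *atf5a* at 4 dpi ranked 877 of 893, so it stood near the lowest ratio that was listed, 1.39. The uninjured level is also the denominator of the ratio, so these measures are not independent.

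**Figure D4:**
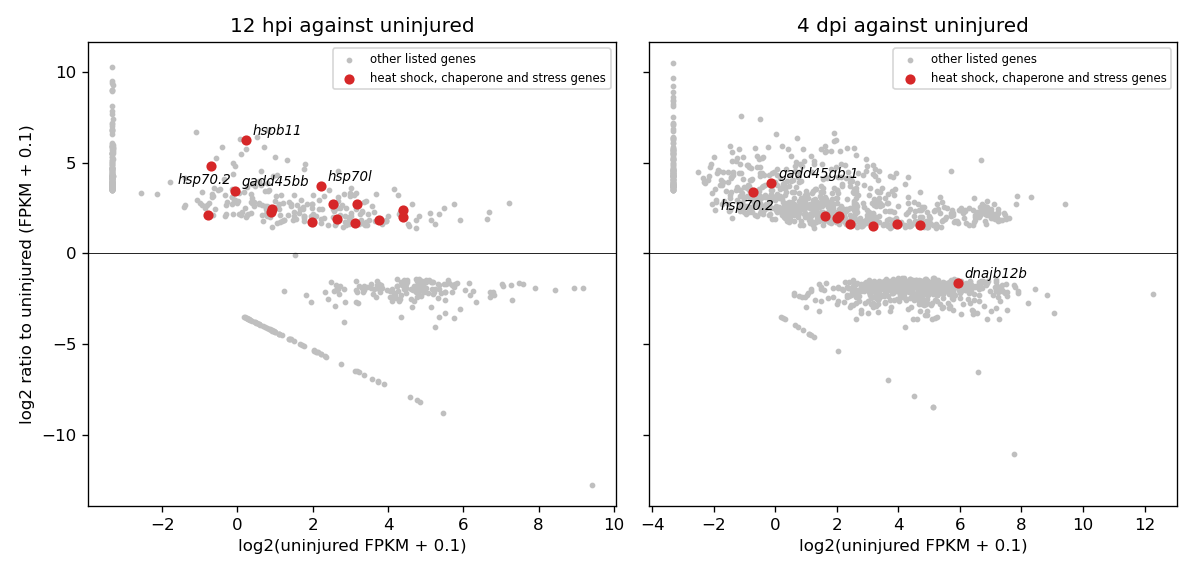
Log2 ratio to uninjured retina against log2 uninjured level (both with 0.1 FPKM added) for every gene listed at 12 hpi (left) and at 4 dpi (right); red points are the chaperone and stress genes and grey points the other listed genes. *hspb11* and *hsp70.2* stand among the higher ratios at 12 hpi, and most other red points lie along the lower edge of the genes listed as higher.

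The tables also name the protein domains of each gene. All 5 listed genes with the HSP70 domain (*hsp70l*, *hsp70.2*, *hspa4a*, *hspa5* and *hyou1*) were listed as higher at 12 hpi, and *hsp70.2* alone at 4 dpi. All 3 listed genes with a J domain and values here were in the set (*dnajb1b*, *dnajc21* and *dnajb12b*). The small heat shock domain was carried by 4 listed genes: *hspb11*, *hspb8*, and the α-crystallin genes *cryaa* and *cryabb*. *cryabb* had 0.688 FPKM in the uninjured library against 13.2 FPKM at 12 hpi for its listed transcript. For the gene, it had 1.11 FPKM in the uninjured library against 17.3 FPKM at 4 dpi. The thioredoxin domain of *pdia3* and *pdia4* was shared at 4 dpi by *txn* (4.31 and 82.1 FPKM), which encodes thioredoxin, and by *zgc:56493* (43.1 and 147.7 FPKM). Of the 22 genes of the set with coordinates, 4 lay on chromosome 21, with *hspb11* and *gadd45gb.1* (20678383 to 20679925, plus strand) closest to each other.

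Genes of neighbouring pathways were taken from 4 further lists. For cytosolic folding, with 30 genes, the lists of higher genes held 1 at 12 hpi, 5 at 4 dpi and 3 with cyclopamine, and the only lower gene was at 4 dpi. The shares of all named genes were 1.31%, 3.49% and 2.6% higher, and 1.88% lower at 4 dpi. The difference from these shares was not tested. The gene at 12 hpi was the α-crystallin gene *cryabb*, which was also among the 5 at 4 dpi. The other higher genes at 4 dpi were 4 subunits of the CCT chaperonin, which folds actin and tubulin: *cct8* (41.5 and 112.7 FPKM), *cct3* (34.5 and 103.2 FPKM), *cct4* (25.1 and 85.1 FPKM) and *tcp1* (24.4 and 80.7 FPKM). Their log2 ratios lay between 1.44 and 1.76. The gene listed as lower was *fkbp5*, an HSP90 co-chaperone induced by glucocorticoids in mammals, with 149.3 FPKM in the uninjured library against 27.8 FPKM at 4 dpi (log2 ratio -2.42). With cyclopamine, *cryabb*, *hsbp1b* and the HSP90 co-chaperone gene *ptges3b* were listed as higher.

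For ER folding and the unfolded protein response, with 52 further genes, 3 were higher at 12 hpi, 6 at 4 dpi and 3 under cyclopamine, and none was lower. Of all named genes, 1.31%, 3.49% and 2.6% were listed as higher in these comparisons, and the difference was not tested. *ppp1r15a*, which reverses the phosphorylation of eIF2α that starts the ATF4 branch, had 9.86 FPKM in the uninjured library against 50.2 FPKM at 12 hpi. *cebpb*, a bZIP partner of ATF4, had 0.861, 26.3 and 14.1 FPKM in uninjured retina, at 12 hpi and at 4 dpi. *psat1* of serine synthesis, an ATF4 target in mammals, had 3.20 FPKM in the uninjured library against 22.9 FPKM at 4 dpi, and *slc3a2a*, an amino acid transporter subunit, had 4.17 and 17.3 FPKM. *ssr3*, a subunit of the complex beside the ER translocon, had 13.6 and 46.3 FPKM in the same libraries, and *ssr4* of the same complex was listed as higher too. *p4hb*, a further disulfide isomerase, was listed as higher with cyclopamine.

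For the oxidative stress response, with 27 genes, the 12 hpi lists held 2 higher and 2 lower genes, the 4 dpi lists 5 higher, and the cyclopamine lists 2 higher and 1 lower. The shares of all named genes in these comparisons were 1.31%, 3.49% and 2.6% higher and 0.798%, 1.88% and 2.24% lower. The difference from these shares was not tested. *txnipa*, an inhibitor of thioredoxin, had 9.25 FPKM in uninjured retina, 29.9 FPKM at 12 hpi and 59.6 FPKM at 4 dpi. The peroxiredoxin gene *prdx1* went in opposite directions: a transcript of it had 3.16 FPKM in uninjured retina and close to 0 FPKM at 12 hpi, the gene had 3.51 and 24.5 FPKM at 4 dpi, and it was listed as lower with cyclopamine. Transcripts were listed at 12 hpi and genes at 4 dpi, so the values of *prdx1* at these times are not of the same feature. Whether its cyclopamine row is of the gene or of a transcript is uncertain. For ubiquitin, proteasome and autophagy (92 genes), higher genes by lower-case symbol numbered 2 at 12 hpi, 5 at 4 dpi and 3 under cyclopamine. None of these symbols was in a list of lower genes. Of all named genes, 1.31%, 3.49% and 2.6% were listed as higher. Symbols deposited in capitals were not counted. Among them, *TP53INP2* was lower at 12 hpi (29.9 and 10.4 FPKM) and *PSMB10* higher at 4 dpi (3.22 and 23.2 FPKM). A gene with another identifier, deposited as *tp53inp2* in lower case, was among those higher at 4 dpi (1.83 and 18.1 FPKM). The proteasome genes included *psme1*, an activator of the proteasome, with 3.93, 17.8 and 33.1 FPKM in uninjured retina, at 12 hpi and at 4 dpi.

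Markers of other cells were listed alongside these genes. Of 15 lens markers, 6 were listed as higher in each of the 3 comparisons and none as lower, and their summed level was 3.04 FPKM in uninjured retina, 278.9 FPKM at 12 hpi and 145.7 FPKM at 4 dpi. Of these 6, *crygm3*, *cryaa*, *lim2.1* and *lim2.4* were listed at 0 in uninjured retina. Small heat shock proteins and HSP70 are also made in the lens, and the part of lens RNA in the values of *hspb11*, *hsp70l* and *cryabb* was not tested. Of 10 microglia and macrophage markers, 1 was in the 12 hpi list of higher genes, 5 in that of 4 dpi, and 5 in that of cyclopamine. Their summed level at 4 dpi was 258.7 FPKM in the uninjured library and 2321 FPKM after injury, most of it *apoeb*, and the other 4 markers summed to 25.1 and 210.5 FPKM. *mpeg1.1* had 2.71 FPKM in the uninjured library against 18.5 FPKM at 4 dpi, and the part of these cells in the 4 dpi values of *sqstm1* and the ER genes was not tested. Of 6 red blood cell markers, *slc4a1a* was listed as higher at 12 hpi (0.540 and 2.68 FPKM) and *alas2* as lower with cyclopamine. The globin gene *ba1*, chosen after its values were seen, had 53.7 FPKM in the uninjured library and 349.6 at 12 hpi, and the part of blood in the 12 hpi values was not tested. Of 7 Müller glia markers, *slc1a2b* was listed as lower at 12 hpi (66.0 and 16.0 FPKM), and *gfap* (10.2 and 84.5 FPKM) and *vim* (15.7 and 95.6 FPKM) as higher at 4 dpi and also with cyclopamine. No marker of skeletal muscle was listed, and of the rod and cone markers only *sagb*, *pde6c* and *arr3b* were, all with cyclopamine, so these markers have no levels here. Other photoreceptor genes, looked up after their values were seen, had levels in the uninjured library, among them the recoverin gene *rcvrna* (237.4 FPKM, and 63.6 FPKM at 12 hpi) and the rod factor gene *nr2e3* (11.9 FPKM, and 72.3 FPKM at 12 hpi). *arr3b* was in both directions there. This was so for 12 genes with cyclopamine, none of them of the chaperone and stress set.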

How the data were processed

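Whole-retina RNA from 4 libraries was made into Illumina libraries and sequenced. The submitters' processing notes name Bowtie2 2.2.2, TopHat2 2.1.0, Cufflinks 2.2.1 and the build GRCz10, without their roles. The authors deposited FPKM values, per transcript at 12 hpi and per gene at 4 dpi, for features they listed as higher or lower than in uninjured retina. The cyclopamine lists hold identifiers and symbols only, and whether each row is a gene or a transcript is uncertain. The authors' fold changes, p-values and q-values were not used. Their significance column reads no for every row of the set. Scaling between libraries, list criteria and depth are not given in the sources used here, so no interval is given for any value.

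Columns were read by sample label. At 12 hpi a gene was represented by its listed transcript of highest mean FPKM, and log2((later FPKM + 0.1)/(uninjured FPKM + 0.1)) was computed with Python 3.11.15 and pandas 2.3.3. The computation was tested on simulated data. Every gene of the set is named with its list. Genes of the other lists are named if deposited, at most 5 a list and comparison by level; *cryabb* was added for its domain after its values were seen. Names came from the tables, from a name table of 29201 identifiers (26 of 26 genes found) and from RefSeq GRCz12tu, used for names and for which genes neighbour each other. Genes and lists were chosen with earlier results of these data known. No group has replicates, so no test was run.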

Additional observations from a re-analysis of the deposited data

How the results depend on the processing

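The counts of chaperone and stress genes listed as higher at 12 hpi and 4 dpi fell when a minimum level was required. With at least 1 FPKM required in both libraries, 12 in place of 15 genes were listed as higher at 12 hpi and 7 in place of 9 at 4 dpi. Requiring an absolute log2 ratio of at least 1 could change no count, since the lowest in the set were 1.69 at 12 hpi and 1.52 at 4 dpi. Counting every row could change none either, as no gene of the set had more than 1 listed transcript. The median log2 ratio of the genes listed as higher was 1.98 at 12 hpi and 1.73 at 4 dpi with a pseudocount of 1 FPKM, and 2.38 and 1.97 without one. Of 25 single log2 ratios, 6 moved by more than 1.5-fold with a pseudocount of 1 FPKM, those of *hspb11*, *hsp70.2*, *gadd45bb* and *hspb8* at 12 hpi and of *gadd45gb.1* and *hsp70.2* at 4 dpi, all with a low uninjured level. By construction no pseudocount can reverse a ratio. Summing the listed transcripts changed none of 15 ratios, since no gene of the set had more than 1 listed transcript. Matching by symbol in place of identifier gave the same count of genes found in several lists. No paired analysis was possible because no group holds more than 1 library, and none could be left out. The depth is unknown, so a low value such as 0.487 FPKM for *hspb8* has no known precision.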
